A study of Mus musculus with 4 samples.

Results

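The vomeronasal type 2 receptor genes of the mouse (Vmn2r) were described in the H3K27me3 peak lists of GL261, a mouse glioblastoma cell line, in irradiated and control cells. The members were all protein-coding genes of the RefSeq annotation of mm10 with a symbol of Vmn2r followed by a number, and a member was counted as marked when a listed peak touched its body or a margin of 2000 bp around it. Membership goes by name, but which members are marked was chosen by the measured peaks of the 2 libraries. The rule found 123 genes among 21900 protein-coding genes. Of these, 122 were placed on a chromosome, among 21779 placed genes, and were analysed. Vmn2r122, annotated on a sequence outside the assembled chromosomes, was not analysed here. The series held 4 libraries: H3K27me3 from irradiated cells, H3K27me3 from control cells, and an input library of each condition. IR in the labels was taken to mean irradiated, after the title of the series; dose and time are not stated there. All groups were the same cell line without any genetic change named in the labels, and each H3K27me3 library gave 1 peak list. With 1 library per group no difference could be set against replicate error. Every interval given is an exact (Clopper-Pearson) 95% interval that covers counting error only. The mark was measured and RNA was not, so the cell line was not checked against markers.

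Type 2 vomeronasal receptors are G protein-coupled receptors of class C, with a large extracellular domain that binds peptide and protein pheromones. They are made in the basal sensory neurons of the vomeronasal organ, where they signal through the G protein subunit Gnao1 and the channel Trpc2, and they are not known to act in glia. H3K27me3 is written by Polycomb repressive complex PRC2, which in mammals is found mostly at silent genes with CpG-rich promoters. The genes lie in arrays of duplicated copies, and copies that are nearly identical can share sequencing reads.

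The promoters show how alike the copies can be. RefSeq promoter windows of 300 bases (250 before the start and 50 after it, build GRCm38.p6) were at hand for 116 of the 122 genes. The windows of 4 neighbours on chromosome 17, of which 3 had a peak, are shown first: Vmn2r114 (chr17:23312264-23312563, minus strand), Vmn2r115 (chr17:23343727-23344026, plus strand), Vmn2r116 (chr17:23384553-23384852, plus strand) and Vmn2r117 (chr17:23479548-23479847, minus strand). Vmn2r116 is the receptor for ESP1, a pheromone of male tears. Each is read 5′ to 3′ on the strand of its gene, and capitals mark bases that differ from Vmn2r115.
Vmn2r114: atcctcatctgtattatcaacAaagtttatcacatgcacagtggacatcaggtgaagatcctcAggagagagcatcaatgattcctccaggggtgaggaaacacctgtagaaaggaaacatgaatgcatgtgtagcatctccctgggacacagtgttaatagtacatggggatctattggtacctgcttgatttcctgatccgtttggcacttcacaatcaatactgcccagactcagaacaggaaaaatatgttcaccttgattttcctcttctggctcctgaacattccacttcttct
Vmn2r115: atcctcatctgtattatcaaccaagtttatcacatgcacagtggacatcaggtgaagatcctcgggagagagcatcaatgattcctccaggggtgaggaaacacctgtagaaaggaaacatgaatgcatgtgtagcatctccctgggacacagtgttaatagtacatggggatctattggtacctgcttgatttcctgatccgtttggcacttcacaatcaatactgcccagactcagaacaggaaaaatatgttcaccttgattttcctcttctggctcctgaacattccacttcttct
Vmn2r116: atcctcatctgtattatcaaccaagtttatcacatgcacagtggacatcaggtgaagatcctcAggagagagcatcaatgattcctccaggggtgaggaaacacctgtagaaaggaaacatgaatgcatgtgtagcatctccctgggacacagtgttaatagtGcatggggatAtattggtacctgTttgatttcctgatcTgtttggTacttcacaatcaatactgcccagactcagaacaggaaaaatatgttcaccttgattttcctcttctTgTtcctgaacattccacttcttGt
Vmn2r117: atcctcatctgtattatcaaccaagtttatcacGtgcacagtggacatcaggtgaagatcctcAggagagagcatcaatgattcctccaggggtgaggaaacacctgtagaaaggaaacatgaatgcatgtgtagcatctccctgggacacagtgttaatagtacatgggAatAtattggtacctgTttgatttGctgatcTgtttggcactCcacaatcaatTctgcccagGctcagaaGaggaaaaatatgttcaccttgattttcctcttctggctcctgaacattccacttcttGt
Vmn2r114 differed from Vmn2r115 at 2 bases, Vmn2r116 at 9 and Vmn2r117 at 12. The copy marked in both lists (Vmn2r114), those marked in the control list alone (Vmn2r115 and Vmn2r117) and the unmarked Vmn2r116 thus had nearly the same promoter. The windows of Vmn2r82 (chr10:79356341-79356640, plus strand) and Vmn2r129 (chr4:156330853-156331152, plus strand) are shown for their base composition, with each CG in capitals.
Vmn2r82: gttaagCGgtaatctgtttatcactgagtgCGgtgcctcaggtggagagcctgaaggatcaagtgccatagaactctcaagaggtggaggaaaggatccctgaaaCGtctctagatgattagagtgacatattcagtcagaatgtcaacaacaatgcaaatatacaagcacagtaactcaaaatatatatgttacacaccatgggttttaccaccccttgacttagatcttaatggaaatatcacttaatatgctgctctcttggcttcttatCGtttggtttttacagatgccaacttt
Vmn2r129: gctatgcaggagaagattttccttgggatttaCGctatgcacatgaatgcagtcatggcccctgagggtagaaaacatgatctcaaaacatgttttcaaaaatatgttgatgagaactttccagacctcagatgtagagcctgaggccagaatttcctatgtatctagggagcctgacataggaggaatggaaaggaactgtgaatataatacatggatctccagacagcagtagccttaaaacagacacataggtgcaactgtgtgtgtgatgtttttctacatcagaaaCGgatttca
They held 4 and 2 CG dinucleotides, and a GC content of 40.3% and 41.7%.

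Few of the receptor genes had a peak, and the irradiated list named fewer of them than the control list. In the irradiated list 2 of 122 genes had a peak (1.64%, 0.199 to 5.8), against 8.24% of all placed protein-coding genes. In the control list 6 of 122 had one (4.92%, 1.83 to 10.4), against 6.08% of all genes. Vmn2r114 had a peak in both lists, where 3.69% of all genes did. Vmn2r82 had a peak in the irradiated list alone, as did 4.55% of all genes. Vmn2r80, Vmn2r81, Vmn2r115, Vmn2r117 and Vmn2r129 had one in the control list alone, as did 2.4% of all genes. The other 115 receptor genes had no peak in either list. In these 2 lists the counts had the opposite order to all genes, of which 1794 had an irradiated and 1325 a control peak. The intervals of the 2 shares overlapped, and apart from Vmn2r129 the control genes were neighbours on chromosomes 10 and 17. With 1 library per list, this order carries little weight. Since the listed peaks chose the marked members, the counts are a description, and no test was made of them. The same 8 peaks give the other values below.

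Gene length was set beside the counts, since a long gene has more room for a peak. The receptor genes had a median length of 24.6 kb (8.4 to 143 kb), against 17.2 kb for all placed protein-coding genes. Other genes of the same length classes had a peak in 7.65% of cases in the irradiated list and in 4.58% in the control list. The share of receptor genes was 0.214 times that share in the irradiated list (0.026 to 0.757) and 1.07 times in the control list (0.399 to 2.27). The control share thus lay near that of genes of like length, and the irradiated share below it. The intervals treat genes as independent, but neighbours in an array share their surroundings. In the 3.68 Mb that the genes and their margins covered there were 0.544 irradiated and 1.63 control peaks per Mb, against 5.59 and 2.87 per Mb in the regions of other protein-coding genes.

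**Figure D1:**
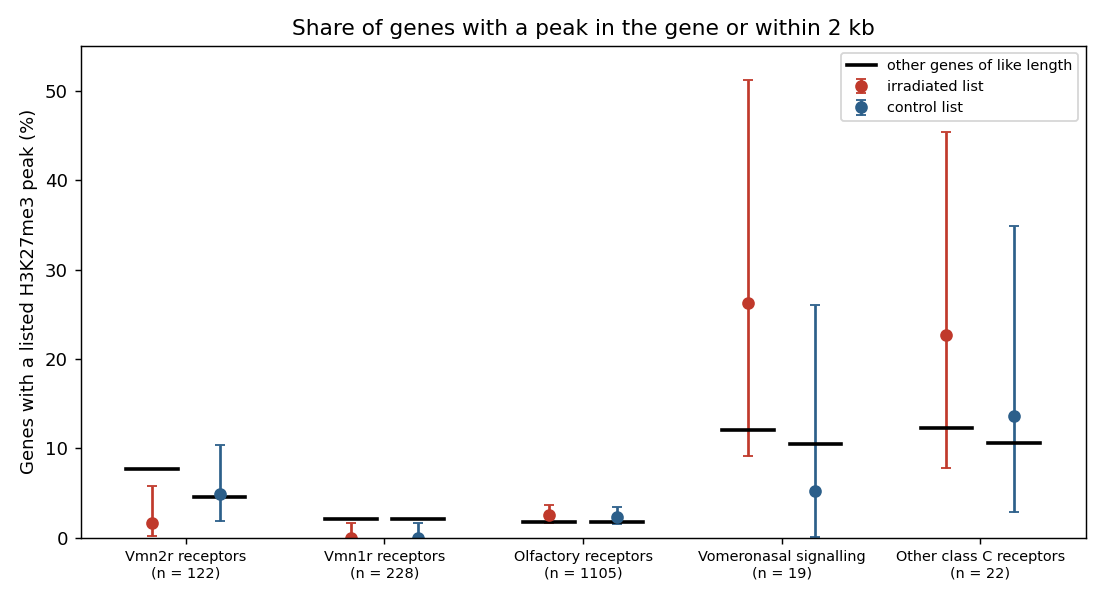
Share of genes with a peak in the irradiated (red) and control (blue) list, in percent, for 5 groups of genes. Points are shares, bars exact 95% intervals for counting error, and black lines the share of other genes of like length; the irradiated point of the Vmn2r genes lies below its line (1.64% against 7.65%) and the control point near it (4.92% against 4.58%).

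The strongest of these peaks was the irradiated one at Vmn2r114 (chromosome 17, 23290934 to 23312313). It covered 23294115 to 23294548, with 17 reads at the summit and a fold enrichment of 6.11 over the local background. Its q was 0.000173, and it ranked 283 of 16091 irradiated peaks by p. The control peak of the same gene, at 23294007 to 23294375, rested on 10 reads, at 3.75-fold enrichment with q = 0.385. The peaks overlapped by 261 bp, which was 60.1% of the irradiated and 70.7% of the control peak. This was the single site at a receptor gene that both lists named. Folds of the lists are the authors' values, scaled separately in each list, and the weakest peaks rested on 8 reads in the irradiated and 7 in the control list.

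Next to it, Vmn2r115 (23343977 to 23360128) had a control peak at 23359804 to 23360117 that reached 5.05-fold on 14 reads (q = 0.0157). Vmn2r117 (23459675 to 23479597) had one at 23460709 to 23461171 that reached 3.6-fold on 10 reads (q = 0.385). Neither gene had an irradiated peak, and the nearest ones lay 65.3 and 52 kb from these control peaks. Vmn2r116 lies between them, and had no peak in either list. The 3 marked genes of this neighbourhood thus differed in their lists: Vmn2r114 was marked in both, the others in the control list. Another control peak, at 23440021 to 23440304 with 11 reads and a q of 0.385, lay beside the pseudogene Vmn2r-ps134. Beyond Vmn2r117, the lists had overlapping peaks, with 13 reads in the irradiated and 17 in the control list.

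**Figure D2:**
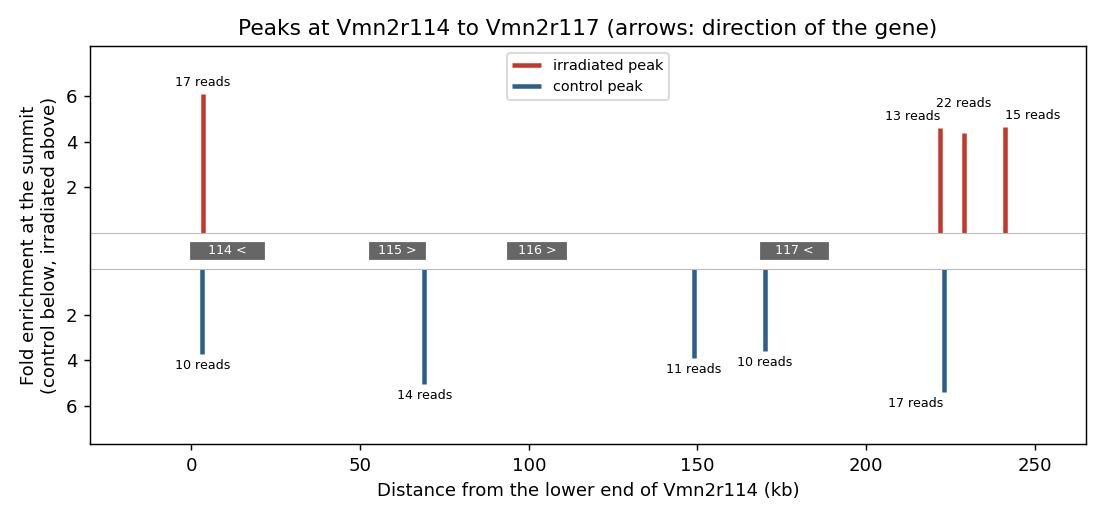
Peaks around Vmn2r114 to Vmn2r117 by distance from the lower end of Vmn2r114 in kb. Line length is the authors' fold at the summit, irradiated above and control below, with recovered reads; grey boxes are genes. Vmn2r114 has a peak in both lists (17 and 10 reads), while the control peaks of 14 and 10 reads at Vmn2r115 and Vmn2r117 have no irradiated partner.

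Vmn2r129 is the last annotated protein-coding gene of chromosome 4 (156331103 to 156339499). Its control peak, at 156341360 to 156342233, reached 5.69-fold on 16 reads (q = 0.00198), and was the broadest of the 8 with 874 bp. It began 1861 bp after the gene, just inside the margin of 2000 bp. No irradiated peak lay within 10 kb. Further on, at the pseudogene Vmn2r125, the lists shared a strong peak. It reached 6.62-fold on 46 reads in the irradiated list (156356708 to 156357267), and 6.47-fold on 61 reads in the control list (156356658 to 156357338). That peak began 17209 bp after Vmn2r129 in the irradiated list, and was the nearest irradiated peak outside the margin of any receptor gene. It lay over a raised background of 3 scaled reads in the irradiated and 5 in the control list, where the lowest of each list were 0.704 and 0.918. In the control list the nearest peak outside a margin was a second one after Vmn2r129, which began 3260 bp past the gene and had 11 reads. Among genes without a control peak, the nearest outside the margin were those of Vmn2r88, a receptor reported to detect hemoglobin, at 3722 bp, and Vmn2r19, at 3752 bp.

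The remaining peaks were weak and lay in an array of 4 genes on chromosome 10 (79148816 to 79492154). Vmn2r82 had the irradiated peak, at 79387162 to 79387443, at 3.27-fold on 10 reads (q = 0.446). Vmn2r80 had a control peak at 79166170 to 79166453 at 3.11-fold on 8 reads (q = 1). Vmn2r81 had one at 79295958 to 79296241 at 3.75-fold on 10 reads (q = 0.385). Vmn2r83, the fourth copy, had none. No site was shared, and each peak lay at least 70 kb from the nearest peak of the other list. None of these peaks reached a q of 0.05.

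When peaks were required to reach a q of 0.05 or lower, the numbers fell to 1 gene in the irradiated list, Vmn2r114, and 2 in the control list, Vmn2r115 and Vmn2r129, with 0 in both lists. The same rule called 2.09% of all genes in the irradiated list, 0.519% in the control list and 0.367% in both. Genes of like length were then marked in 1.56% and 0.299% of cases. These counts of 1 and 2 rest on single peaks and carry no order.

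None of the 8 peaks touched a promoter window. The windows are 300 bases long and the receptor genes 8.4 to 143 kb, so 0 of 8 peaks carries little weight. In 7 of 8 the summit lay beyond the midpoint of the gene, counted from its start. It lay 18 kb from the start of Vmn2r114 in the irradiated list and 18.2 kb in the control list, which was 3.39 and 3.23 kb before the end of the gene. At Vmn2r115 the summit was 0.159 kb before the end of the gene and at Vmn2r117 1.31 kb. At Vmn2r81 and Vmn2r129 it lay 1.65 and 2.14 kb past the end. Vmn2r82 had its summit 30.7 kb and Vmn2r80 17.6 kb from the start. Vmn2r80 was the exception, at 38.1% of the gene's length. Among pairs of a peak and another gene of 16.4 to 33.4 kb, the middle range of lengths of the receptor genes, 47.4% of 420 irradiated and 54.7% of 192 control summits lay beyond the midpoint. Of the marked genes, only Vmn2r114 and Vmn2r117 lay in that range of lengths. Vmn2r80, Vmn2r81 and Vmn2r82 were longer, and Vmn2r115 and Vmn2r129 shorter, so these shares are not matched to the marked genes. Copies in an array share their layout, so the 7 genes are not 7 independent cases.

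**Figure D3:**
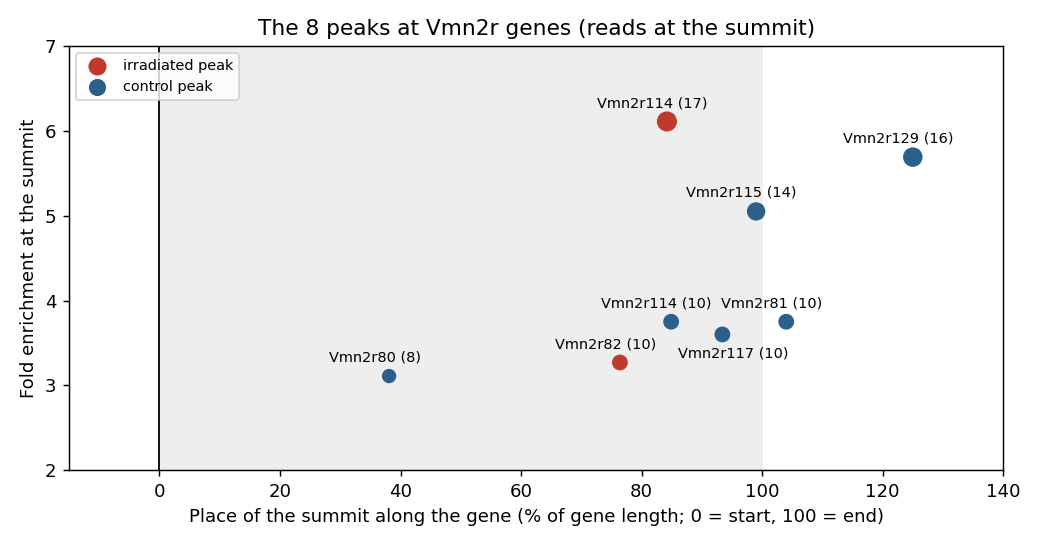
Place of the summit along the gene, in percent of gene length, against the authors' fold for the 8 peaks at receptor genes, with recovered reads in parentheses (dot area follows the reads). The shaded band is the gene; 7 of 8 summits lie past its midpoint and 2 past its end.

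By position the 122 genes formed 18 groups, with members at most 1 Mb apart. There were 12 arrays of 2 or more genes, with 116 genes, and 6 single genes. From first to last gene the groups spanned 13.5 Mb, in which there were 2 irradiated peaks (0.148 per Mb) and 11 control peaks (0.813 per Mb). Within 1 Mb on either side, as far as protein-coding genes reached, there were 154 irradiated (4.66 per Mb) and 64 control peaks (1.94 per Mb), with peaks in overlapping margins counted for each group. Most groups were too short to hold 1 peak at the density beside them, so a count of 0 there carries little weight. At that density 7 groups would hold 1 or more irradiated peaks, and all 7 had a lower density inside, with 2 peaks where the density beside them would give 61.4. In the control list there were 4 such groups, again lower inside, with 3 peaks where the density beside them would give 21.2. Of the other 14 groups, 2 had a higher control density inside. Such groups were picked by the density beside them, which favours a lower density inside. The chromosome 6 array, with 35.5 irradiated and 17.5 control peaks per Mb beside it, weighs heavily in both 61.4 and 21.2. In 14 groups with 80 genes, neither list had a peak between the first and the last gene. These include the single gene Vmn2r129, which counts as marked by a control peak in its margin.

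A large difference between an array and its surroundings, picked after the values were seen, lay on chromosome 6. Vmn2r19 to Vmn2r27, 9 genes between 123308333 and 124231784, include Vmn2r26, a receptor for peptides bound by MHC class I. In these 923 kb there were 0 irradiated and 2 control peaks. In the 1 Mb before the array there were 34 irradiated and 15 control peaks, and in the 1 Mb after it 37 and 20. The nearest irradiated peaks lay 88.8 kb from Vmn2r19 and 30.2 kb from Vmn2r27, so these counts place no edge at the ends of the array. The 2 control peaks, with 8 and 13 reads, lay outside the margins of all 9 genes. This array supplied 71 of the 154 irradiated peaks beside the groups. Without it the densities inside and beside the arrays were 0.159 and 2.67 per Mb in the irradiated list, and 0.714 and 0.934 per Mb in the control list.

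Chromosome 7 carries the most receptor genes, 52 in 5 groups over 6.87 Mb. No peak of either list lay in them, against 22 irradiated and 8 control peaks beside them. The largest array, Vmn2r29 to Vmn2r52 with 24 genes over 2960 kb, had 2 irradiated and 1 control peak within 1 Mb on either side, so its surroundings were poor in peaks as well. Vmn2r57 to Vmn2r126 had 13 irradiated and 1 control peak beside it, all irradiated ones after its last gene. On chromosome 3, the array of Vmn2r1 to Vmn2r7, receptors that basal neurons make together with other type 2 receptors, had no peak inside, and 1 irradiated and 2 control peaks beside it. On chromosome 5, Vmn2r8 to Vmn2r17 had none inside and 3 irradiated and 2 control peaks beside them.

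The arrays with a higher control density inside than beside them were those of Vmn2r80 to Vmn2r83, with 1 irradiated and 4 control peaks in 343 kb, and Vmn2r111 to Vmn2r117, with 1 irradiated and 4 control peaks in 932 kb. Within 1 Mb on either side there were 9 irradiated and 4 control peaks for the first array, and 19 irradiated and 2 control peaks for the second. The large array of chromosome 17, Vmn2r90 to Vmn2r110 with 22 genes, had 0 irradiated peaks and 1 control peak, at 17902308 to 17902892 with 13 reads and a q of 0.0252, between genes.

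**Figure D4:**
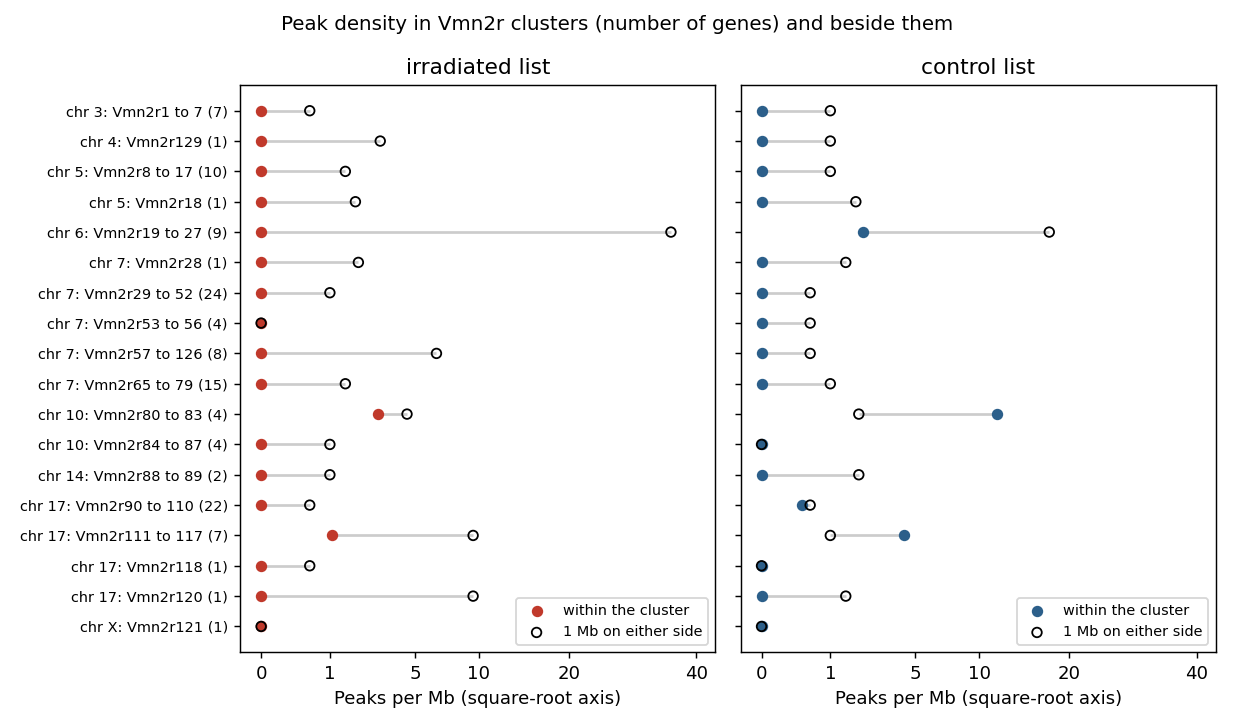
Peaks per Mb (square-root axis) inside each of the 18 groups of receptor genes (filled) and within 1 Mb on either side (open), in the irradiated (left) and control (right) list. Short groups can hardly hold a peak at the density beside them; the chromosome 6 array has 0 irradiated peaks per Mb inside and 35.5 beside it.

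Most of the receptor genes were far from any peak. The median distance to the nearest peak was 1050 kb in the irradiated and 927 kb in the control list, against 130 and 193 kb for other protein-coding genes. A peak lay within 100 kb of 9.02% of the receptor genes in the irradiated list and of 14.8% in the control list, against 44.6% and 35.6% of other genes. Neighbours in an array often share their nearest peak, so the receptor genes are not independent cases here. The other genes were not matched by length or chromosome. The farthest was Vmn2r121, the single receptor gene of the X chromosome, with 11800 kb to the nearest irradiated and 18400 kb to the nearest control peak.

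The promoters of the receptor genes were poor in CG. They had a median of 1 CG dinucleotide in 300 bases, against 13 in 17376 other genes, and a median GC content of 38% (quartiles 35.9 and 40), against 56.3%. In 32 of 116 there was no CG, and 115 held 5 or fewer, as did 32.3% of other genes. Vmn2r29 was the exception, with 23. Among the other genes, those with 5 or fewer CG had a peak in 10.1% of cases in the irradiated and 7.59% in the control list, and those with more in 6.6% and 4.78%. Set beside other genes of like length and like CG number, a choice made after the data were seen, the share of marked receptor genes was 0.107 times theirs in the irradiated list and 0.485 times in the control list.

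**Figure D5:**
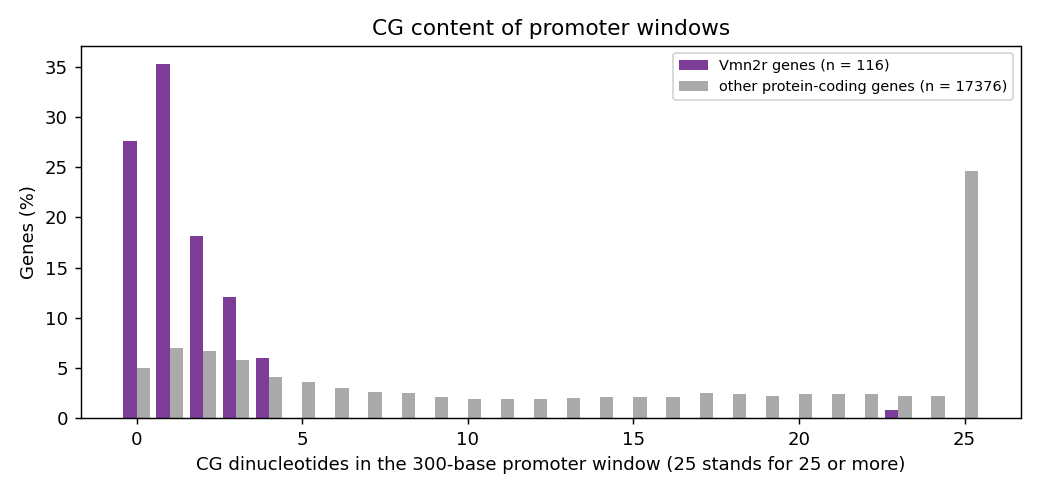
Number of CG dinucleotides in the 300-base promoter window, as percent of 116 Vmn2r genes (purple) and of 17376 other protein-coding genes (grey). The receptor genes crowd at 0 to 4, with a median of 1 against 13, and Vmn2r29 stands alone at 23.

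Likeness between copies was measured by aligning every pair of promoter windows. The nearest copy had a median identity of 90.9% over 116 genes, and 35 genes had a copy of at least 95%. Of these 35 genes 3 had a peak in either list, and of the 81 genes with a less similar nearest copy 4 did. The array of Vmn2r29 to Vmn2r52 on chromosome 7, with no peak, had a median of 99%, and that of Vmn2r111 to Vmn2r117, with 1 irradiated and 4 control peaks, had 98.3%. On chromosome 6, where no gene was marked, the median was 89.9%. Genes without a peak were found in arrays of high and of lower promoter identity. The 3 marked genes with a copy of at least 95%, Vmn2r114, Vmn2r115 and Vmn2r117, belong to 1 array. Promoter windows do not show how alike the copies are at the peaks, which lay outside these windows. The labels do not say how the alignment treated reads that match several copies, and its part in these counts was not tested.

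Other chemosensory genes gave a varied picture. Of 228 type 1 vomeronasal receptor genes, short genes with a median length of 0.924 kb, 0 had a peak in either list, where genes of like length had one in 2.12% (irradiated) and 2.07% (control) of cases. Of 1105 olfactory receptor genes, 28 had an irradiated and 26 a control peak (2.53% and 2.35%), against 1.82% and 1.79% of genes of like length. The olfactory genes with the lowest q were Olfr287 on chromosome 15, with 7 irradiated and 3 control peaks, and Olfr311 on chromosome 11, with 3 and 1. Of 15 trace amine receptor genes, Taar3 had an irradiated peak (q 0.0119), and 0 of 7 formyl peptide receptor genes had a peak in either list. Genes of like length had a peak in 1.75% (irradiated) and 1.86% (control) of cases for the first group and in 2.64% and 2.07% for the second, so counts of 0 or 1 among so few genes say little. Of 148 Vmn2r pseudogenes, examined after the data were seen, 3 had an irradiated and 5 a control peak (2.03% and 3.38%), against 3.26% and 2.51% of all 10510 pseudogenes. Vmn2r-ps17 on chromosome 4 had the control peak with the lowest q after that of Vmn2r125, with 14 reads and a fold of 4.38 in the irradiated list and 30 reads and a fold of 10.2 in the control list.

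Genes that act with the receptors were also examined. Of 19 genes of vomeronasal signalling, 5 had an irradiated and 1 a control peak (26.3%, 9.15 to 51.2, and 5.26%, 0.133 to 26), against 12.1% and 10.5% of genes of like length. Ano2, a calcium-activated chloride channel of sensory neurons in a peak-rich part of chromosome 6, had 68 irradiated and 35 control peaks. Gnao1, which encodes the G protein subunit of the basal neurons, had 3 irradiated peaks, with a lowest q of 0.0157, and no control peak. Kcnn3, a calcium-activated potassium channel gene, had 8 and Ano1, another chloride channel gene, had 4 irradiated peaks, with lowest q of 0.0536 and 0.149, and no control peak. Of 22 other class C receptor genes, 5 had an irradiated and 3 a control peak (22.7% and 13.6%), against 12.3% and 10.6% of genes of like length. They were led by Gabbr2, a GABA-B receptor subunit, with 6 irradiated peaks, a lowest q of 0.071 and no control peak. Of 10 genes of the H2-M group and its partner B2m, proteins found together with type 2 receptors in basal neurons, 0 had an irradiated peak and H2-M10.3 and H2-M10.6 each had a control peak with a q of 1. The control share was 20% (2.52 to 55.6), and 3.16% (irradiated) and 1.45% (control) of genes of like length were marked. Of 42 genes of protein ligands, 0 had an irradiated peak, and Mup5 and Mup4, which encode major urinary proteins, had 5 and 1 control peaks. The lowest q of these control peaks was 0.385, at Mup5. Genes of like length were marked in 3.68% of cases in the irradiated and 1.96% in the control list. In lists of this size a count of 0 lies near these shares.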

How the data were processed

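H3K27me3 ChIP-seq of GL261 cells was deposited as 1 peak list per library, not pooled. BWA, deepTools and the build mm10 are named in the submitters' processing notes, without versions. The sources used here name neither the peak caller nor its settings, nor how reads that match several places were treated. Start, end and summit are other values, in bp. The score, as deposited, equals 10 times −log10 p without its decimals. The authors' ratio is the fold at the summit over the local background, and their −log10 p-values and q-values were used as given. The weakest peak had a p of 0.00499 in the irradiated list (16091 peaks, 2453 with a q of at most 0.05) and 0.00495 in the control list (9866 and 675). Further summits of an interval, 679 and 215 lines, were merged with it, keeping the values at the summit with the lowest p.

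The library totals are unknown. Reads at a summit were recovered from fold and p with a Poisson model (tolerance 0.001 in −log10 p), which found a whole number for 100% of peaks, with several solutions in 0.292% of irradiated and 0.0101% of control peaks; the method was tested on simulated data. The median was 11 reads in the irradiated and 10 in the control list.

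Genes came from RefSeq GRCm38.p6. Rows below 3 Mb on chromosomes 1 to 19 and X, where neither list had a peak, were taken as lying on other sequences and left out. For like length, the share of marked genes among non-members in the same of 10 length classes was averaged over members. Promoter identity came from global alignments (Biopython 1.88); proteins, planned for this, were not used here. Members and lists were chosen with earlier results of these data known. Named genes were the members with a peak, and up to 4 per other list by lowest q. Python 3.11.15, SciPy 1.17.1 and pandas 2.3.3 were used.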

Additional observations from a re-analysis of the deposited data

How the results depend on the processing

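Peaks with a q of at most 0.05 left 1 irradiated, 2 control and 0 shared genes, and peaks with a −log10 p of at least 5 the same numbers, 1, 2 and 0. The ratio of the control share to that of genes of like length moved to 5.49 and 2.98 under these rules, on 2 genes. The irradiated ratio was 0.527 and 0.322, on 1 gene, so its place below 1 carries little weight under these rules. With equal numbers of peaks, 1 gene had an irradiated and 6 a control peak. Over 12 alternatives the irradiated ratio ranged from 0.107 to 0.527. Over the 10 others the control ratio ranged from 0.485 to 1.24, on both sides of 1. With margins of 0, 500 and 5000 bp, summits in place of whole peaks, or low-background peaks, 2 genes had an irradiated peak and 4 to 8 a control peak. Gaps of 500 kb and 2 Mb gave 20 and 15 groups. Without predicted genes the ratios were 0.22 and 1.12. A reciprocal overlap of 50% kept the shared peak of Vmn2r114. No paired analysis was possible because each group has 1 library. Alternatives by promoter CG and without predicted genes were chosen after seeing the data. A gene without a peak may carry the mark below the calling threshold, and few reads per summit limit all counts.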
